A study of Homo sapiens with 9 samples.

Results

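ATF4, ATF5, ATF3, DDIT3, TRIB3, CHAC1, PPP1R15A, SESN2, DDIT4 and CEBPB are regulators and feedback genes of the ATF4 stress response. The 10 genes, of the 57736 rows in the table, were chosen by symbol, with their normalized counts in these same libraries already known. Their values in the 3 groups are therefore given as a description, without p-values. All 10 were abundant enough to enter the fit of 14614 genes.

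In the integrated stress response, kinases that sense amino acid shortage, misfolded protein, heme loss or double-stranded RNA phosphorylate the translation factor eIF2 on its alpha subunit. General protein synthesis then falls, while the ATF4 mRNA is translated more through its upstream reading frames. ATF4 pairs with C/EBP and other bZIP (basic leucine zipper) proteins and binds composite C/EBP-ATF response elements (CAREs) in genes for amino acid synthesis, transport and tRNA charging, and in genes that amplify or end the response. Melanoma cells engage this pathway under nutrient limitation and other stress.

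The study asked which transcripts change when the histone demethylase PHF8 is targeted by CRISPR-Cas9 in SKMEL-147, a human melanoma cell line. All cells carried a stably expressed Cas9 from a lentivirus and received 1 further lentivirus with a guide RNA under the U6 promoter and a fluorescent reporter. The control group sgScr received a scrambled guide, and the groups sgPHF8-1 and sgPHF8-3 received 1 of 2 guides against PHF8. Each group had 3 biological replicates, lettered A to C, of mass transduced cells and not of single clones, so edited and unedited alleles may be mixed in a library. Ribosomal RNA was removed from total RNA before library construction.

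The 9 libraries held between 17366120 and 19838142 counted reads. The sgPHF8-1 B library stood apart: 22427 genes were above 0 in it, against 23035 to 23229 in the other libraries, and its score on the second principal component was 15.9, against 0.967 and 2.64 for the other libraries of its group. The counts of each gene list with sgPHF8-1, and the members' fold changes, are given with and without it. The sgPHF8-3 libraries also spread on that component, at -6.08 for A, -11.35 for B and -15.67 for C. No recount list by list was made without any of them. Among the markers of melanocyte origin, SOX10 stood at 2369 to 2830.4 normalized counts and MITF at 200.5 to 288, while MLANA and TYR were at 0 in every library and PMEL did not exceed 11.2. The leukocyte gene PTPRC reached at most 3.2 and the fibroblast gene DCN was at 0, though the fibroblast gene LUM stood at 239 to 322 and the keratin gene KRT14 at 13.4 to 44. KRT14 fell with both guides, to -1.10 ± 0.25 on the log2 scale with sgPHF8-1 (edgeR adjusted p = 0.00129) and -0.90 ± 0.241 with sgPHF8-3 (edgeR adjusted p = 0.0092), and LUM fell to -0.24 ± 0.075 with sgPHF8-3 (edgeR adjusted p = 0.0216). The summed level of the other cell types' markers was 329 to 361 in sgScr, 328 to 347 in sgPHF8-1 and 278 to 300.2 in sgPHF8-3, and its part in the results was not tested.

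PHF8 mRNA was lower with both guides, and more so with sgPHF8-3. It stood at 655, 606 and 634 normalized counts in sgScr A, B and C, at 564, 571 and 565 in sgPHF8-1, and at 399.8, 387 and 434 in sgPHF8-3. The groups did not overlap. The log2 fold change against sgScr was -0.16 ± 0.054 (SE) with sgPHF8-1 (edgeR adjusted p = 0.0272) and -0.64 ± 0.057 with sgPHF8-3 (edgeR adjusted p = 6.36e-09). The difference between the guides was -0.48 ± 0.058 (edgeR adjusted p = 3.86e-06). A frameshift need not lower the mRNA, so these levels do not measure how much PHF8 protein was lost. By Western blot, the study reports efficient loss of PHF8 protein with both guides in SKMEL-147.

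The sequences in front of the genes are shown first, since ATF4 acts through CAREs. For each gene, the first transcription start in the RefSeq promoter table (built on GRCh38.p14) was taken, with 250 bases before and 50 after it. All 10 windows matched GRCh37, the reference of the hg19 build the reads were aligned to, exactly and at 1 place, and positions below are GRCh37. Both strands were searched for 3 motifs, the CARE core TGATGNAA, the cAMP response element TGACGTCA and the AP-1 site TGANTCA, which do not contain each other. The 250 upstream bases are given for the genes with a CARE or cAMP response element and for DDIT4, the member that was lower, with matches in capitals.
CHAC1 upstream, chr15:41245419-41245668, plus strand: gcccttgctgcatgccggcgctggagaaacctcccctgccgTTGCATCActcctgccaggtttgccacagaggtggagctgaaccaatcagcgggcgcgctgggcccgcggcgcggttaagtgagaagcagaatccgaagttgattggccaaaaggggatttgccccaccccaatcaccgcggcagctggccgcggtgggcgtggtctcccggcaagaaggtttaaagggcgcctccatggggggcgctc
ATF3 upstream, chr1:212738499-212738748, plus strand: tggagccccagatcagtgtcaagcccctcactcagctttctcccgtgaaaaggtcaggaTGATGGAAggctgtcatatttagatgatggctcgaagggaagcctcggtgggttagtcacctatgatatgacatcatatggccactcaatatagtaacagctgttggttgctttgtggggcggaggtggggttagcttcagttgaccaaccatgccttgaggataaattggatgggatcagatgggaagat
PPP1R15A upstream, chr19:49375428-49375677, plus strand: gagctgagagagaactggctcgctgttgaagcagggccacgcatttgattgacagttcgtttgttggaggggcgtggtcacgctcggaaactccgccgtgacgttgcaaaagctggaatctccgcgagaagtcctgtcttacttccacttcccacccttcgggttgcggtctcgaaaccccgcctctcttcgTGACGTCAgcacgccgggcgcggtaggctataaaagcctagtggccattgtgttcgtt
DDIT4 upstream, chr10:74033432-74033681, plus strand: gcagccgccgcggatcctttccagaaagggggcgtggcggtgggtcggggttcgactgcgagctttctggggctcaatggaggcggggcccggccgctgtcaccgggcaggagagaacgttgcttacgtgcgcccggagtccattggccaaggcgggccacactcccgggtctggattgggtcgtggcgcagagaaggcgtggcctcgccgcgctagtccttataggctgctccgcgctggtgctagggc

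In CHAC1 the capitals are the CARE core read on the opposite strand, from 209 bases before the start. ATF3 held the CARE core from 191 bases before its start and PPP1R15A the cAMP response element from 58 bases before. No letters of the 3 motifs stood in the DDIT4 window. AP-1 letters stood 188 bases before the ATF5 start and 241 before that of DDIT3. The CARE core was thus in 2 of the 10 windows, beside 3.67% of 27305 promoters, 1 per gene, and the cAMP response element in 1, beside 1.98%. AP-1 letters were in 2 of 10, beside 7.76%. The ATF4, TRIB3, SESN2 and CEBPB windows held none of the 3. A match is a string of letters, not a measured binding site, and other starts or introns were not searched.

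Of the 49 listed ATF4 target genes outside the 10, 37 were found in the promoter table, and 11 of these windows held the CARE core, or 29.7%. In 4 of the 11 it lay after the start. Some of these genes are counted as targets because such an element is known in them. The lines below align it in CHAC1, ATF3 and 4 of those targets, with the cAMP response element of PPP1R15A, each with up to 10 bases on both sides and read in the direction of the motif.
CHAC1, chr15:41245450-41245477, minus strand: ctggcaggagTGATGCAAcggcagggga
ATF3, chr1:212738548-212738575, plus strand: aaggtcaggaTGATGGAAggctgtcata
ASNS, chr7:97501771-97501798, minus strand: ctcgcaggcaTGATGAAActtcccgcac
AARS1, chr16:70323579-70323606, plus strand: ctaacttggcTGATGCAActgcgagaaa
NARS1, chr18:55289037-55289064, minus strand: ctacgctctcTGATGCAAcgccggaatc
SLC3A2, chr11:62649198-62649220, minus strand: ggagcTGATGTAAggagtcctgc
PPP1R15A, chr19:49375610-49375637, plus strand: cctctcttcgTGACGTCAgcacgccggg

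The core read TGATGCAA in CHAC1, AARS1 and NARS1, TGATGGAA in ATF3, TGATGAAA in ASNS and TGATGTAA in SLC3A2.

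ATF4 (ENSG00000128272, chr22:39915700-39918688, plus strand), the transcription factor at the centre of the response, was the most abundant of the 10. It stood at 7560.2, 7590.0 and 7430.2 normalized counts in sgScr A, B and C, at 9300.4, 9740.4 and 9109.9 in sgPHF8-1, and at 9296, 9285 and 8736 in sgPHF8-3. Every library with a PHF8 guide lay above every control library, and the 2 guides overlapped. Its log2 fold change against sgScr was 0.32 ± 0.031 with sgPHF8-1, a gain of 24.6%, and 0.28 ± 0.031 with sgPHF8-3, a gain of 21.0%. These are mRNA levels, and the translational control for which ATF4 is known was not measured. In bulk RNA, a small change in every cell and a larger one in some of the cells cannot be told apart.

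**Figure D1:**
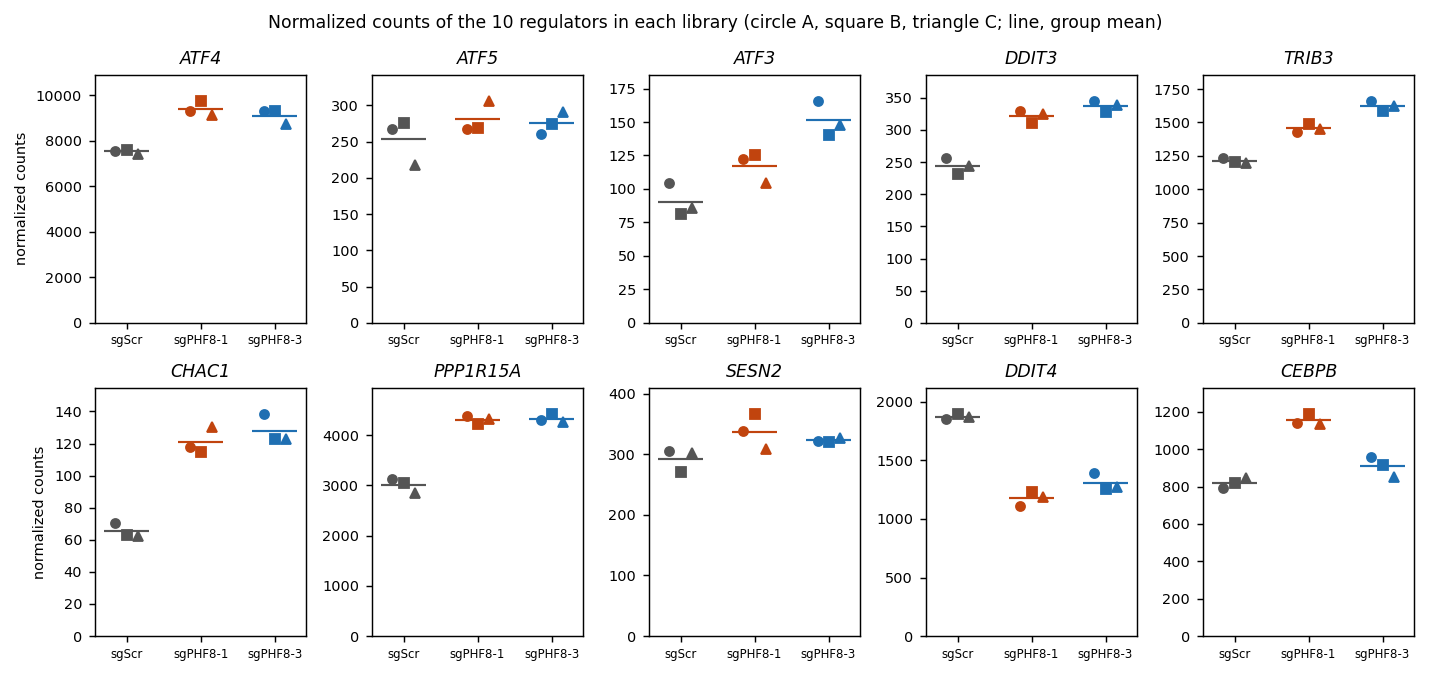
Normalized counts (y axis, linear from 0, its own scale in each panel) of the 10 genes in the 9 libraries, by group (x axis). Circles, squares and triangles are replicates A, B and C, and lines are group means. DDIT4 is the member whose guide libraries all lie below the controls, and ATF5 is the member whose guide and control libraries overlap. The members were chosen on these values, and how many of all genes separate in this way was not counted.

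ATF5 (ENSG00000169136, chr19:50431959-50437192, plus strand), a related bZIP factor that is also translated under eIF2 phosphorylation, showed no separation. Its normalized counts were 268, 276 and 217 in sgScr, 267, 269 and 306 in sgPHF8-1, and 261, 274 and 291 in sgPHF8-3. The control library C was the lowest of the 9 and the other 2 controls lay within the range of the guide libraries. The log2 fold changes were 0.14 ± 0.087 and 0.11 ± 0.087, with 95% intervals from -0.026 to 0.31 and from -0.057 to 0.28. The gene lies across IL4I1 and NUP62 on the other strand, and the strand setting of the counting is not given in the sources used here, so reads of these genes may be mixed.

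CEBPB (ENSG00000172216, chr20:48807367-48809205, plus strand) encodes a C/EBP factor that pairs with ATF4 at CAREs. It stood at 789.9, 819 and 846 normalized counts in sgScr, at 1138, 1186 and 1137 in sgPHF8-1, and at 957, 917 and 849 in sgPHF8-3. The sgPHF8-1 libraries lay far above the rest, while the lowest sgPHF8-3 library was just above the highest control. The log2 fold change was 0.50 ± 0.046 with sgPHF8-1 and 0.15 ± 0.047 with sgPHF8-3. An antisense RNA, CEBPB-AS1, overlaps the gene.

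ATF3 and DDIT3 are bZIP factors that ATF4 induces and that act later in the response. ATF3 (ENSG00000162772, chr1:212738676-212794119, plus strand), whose upstream window holds a CARE core, stood at 104, 81.5 and 85.4 normalized counts in sgScr, at 123, 125 and 104 in sgPHF8-1, and at 166, 140.4 and 148 in sgPHF8-3. The groups stepped up without overlap, but the lowest sgPHF8-1 library exceeded the highest control by under 1 count. Its log2 fold change was 0.38 ± 0.124 with sgPHF8-1 and 0.74 ± 0.118 with sgPHF8-3, the widest standard errors of the 10 beside those of CHAC1, as both genes had low counts. DDIT3 (ENSG00000175197, chr12:57910371-57915520, minus strand), which encodes the pro-apoptotic factor CHOP, stood at 256, 231 and 244 in sgScr, at 330.0, 312 and 324 in sgPHF8-1, and at 345, 328 and 339 in sgPHF8-3. All guide libraries were above all controls, by log2 fold changes of 0.40 ± 0.071 and 0.47 ± 0.07. DDIT3 overlaps MARS1 and MBD6 on the other strand, with the same limit on strand as for ATF5. The MARS1 row itself, listed as MARS, is among the tRNA charging genes below.

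TRIB3 and CHAC1 are targets of ATF4 and CHOP. TRIB3 (ENSG00000101255, chr20:343479-378203, plus strand), a pseudokinase that binds AKT and restrains ATF4 activity, stood at 1234, 1207 and 1200.1 normalized counts in sgScr, at 1429, 1488 and 1449.8 in sgPHF8-1, and at 1660.0, 1582 and 1626 in sgPHF8-3. The 3 groups were fully separated, with sgPHF8-3 highest, and the log2 fold changes were 0.26 ± 0.036 and 0.42 ± 0.036. CHAC1 (ENSG00000128965, chr15:41245160-41248710, plus strand), an enzyme that breaks down glutathione, had the highest fold of the 10 with either guide. Its counts were 70.6, 62.7 and 62.7 in sgScr, 118, 115 and 130.2 in sgPHF8-1, and 138, 123 and 123 in sgPHF8-3. The control and guide libraries were far apart and the 2 guides overlapped. This was 1.85-fold with sgPHF8-1 (log2 0.89 ± 0.123) and 1.96-fold with sgPHF8-3 (log2 0.97 ± 0.121).

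PPP1R15A (ENSG00000087074, chr19:49375469-49379316, plus strand) encodes GADD34, which brings a phosphatase to eIF2 and so ends the response. Its normalized counts were 3129, 3046 and 2839 in sgScr, 4371, 4222 and 4319 in sgPHF8-1, and 4292, 4410.4 and 4267 in sgPHF8-3. The guide libraries lay within a narrow band well above the controls. The log2 fold change was 0.52 ± 0.035 with sgPHF8-1 and 0.53 ± 0.035 with sgPHF8-3, or 1.43-fold and 1.44-fold.

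SESN2 and DDIT4 both restrain the growth kinase complex mTORC1, and the fall of DDIT4 was not shared by SESN2. SESN2 (ENSG00000130766, chr1:28586029-28609002, plus strand), a leucine sensor, stood at 305, 271 and 302 normalized counts in sgScr, at 338, 366 and 308 in sgPHF8-1, and at 322, 319.8 and 327 in sgPHF8-3. Guide and control libraries did not overlap, with log2 fold changes of 0.20 ± 0.073 and 0.14 ± 0.074, and the 95% interval with sgPHF8-3 reached from -0.001 to 0.29. DDIT4 (ENSG00000168209, chr10:74033678-74035794, plus strand), also called REDD1 and induced by hypoxia and glucocorticoids as well as by ATF4, stood at 1853, 1893 and 1868 in sgScr, at 1112, 1231 and 1190.4 in sgPHF8-1, and at 1390.5, 1259 and 1275 in sgPHF8-3. All 6 guide libraries lay below the 3 controls. The log2 fold change was -0.67 ± 0.041 with sgPHF8-1, a change of -37.1%, and -0.52 ± 0.04 with sgPHF8-3, a change of -30.1%.

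**Figure D2:**
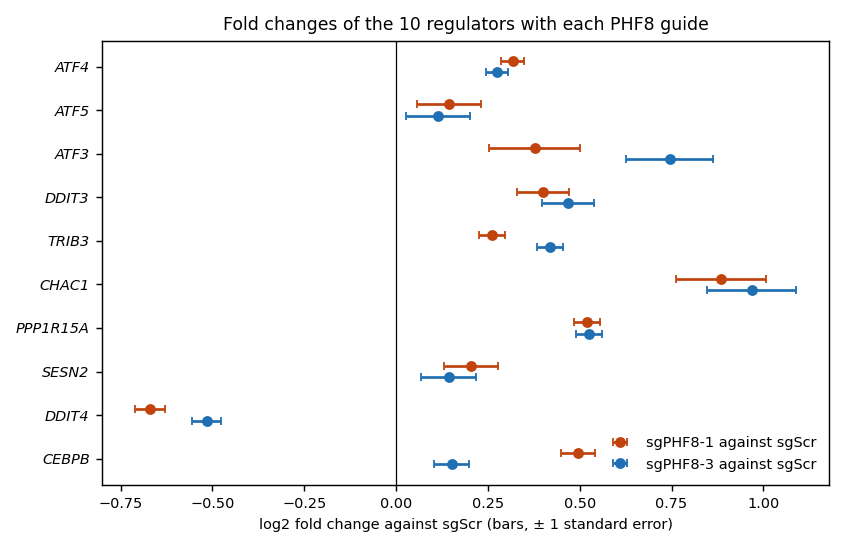
Log2 fold change against sgScr (x axis, points, with bars of 1 standard error on each side) of the 10 genes with sgPHF8-1 and sgPHF8-3, which share the 3 sgScr libraries. CHAC1 lies farthest to the right, at 0.89 and 0.97, and DDIT4 alone lies left of 0, at -0.67 and -0.52.

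Counted by edgeR's quasi-likelihood test at an adjusted p of 0.05 over all genes, 8 of the 10 were higher and 1 lower with sgPHF8-1. Of all genes tested, 15.2% were higher and 15.7% lower in that comparison. With sgPHF8-3, 7 were higher and 1 lower, where 9.48% of all genes were higher and 9.78% lower. In DESeq2, ATF3 and SESN2 with sgPHF8-1 and CEBPB with sgPHF8-3 did not pass. The median log2 fold change of the 10 was 0.35 with each guide, and that of all genes was 0.0003 and -0.0008. Since the values of these comparisons chose the genes, nothing is read from the counts. Without the sgPHF8-1 B library, 6 were higher and 1 lower with sgPHF8-1, ATF3 and SESN2 no longer passed, and 13.4% of all genes were higher and 14% lower. The log2 fold changes with sgPHF8-1 were then 0.29 for ATF4, 0.17 for ATF5, 0.33 for ATF3, 0.43 for DDIT3, 0.25 for TRIB3, 0.92 for CHAC1, 0.54 for PPP1R15A, 0.15 for SESN2, -0.70 for DDIT4 and 0.48 for CEBPB. All 10 kept their direction.

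The guides were also set side by side. In sgPHF8-3 against sgPHF8-1, ATF3 was higher by 0.37 ± 0.114 on the log2 scale, TRIB3 by 0.16 ± 0.035 and DDIT4 by 0.15 ± 0.043, and CEBPB was lower, at -0.34 ± 0.045. At an adjusted p of 0.05 over all genes these made 3 higher and 1 lower, beside 5.83% of all genes higher and 4.74% lower, and as above nothing is read from the count. For DDIT4 the higher value with sgPHF8-3 means a smaller departure from the controls. The 95% interval of the difference was -0.10 to 0.018 for ATF4, -0.060 to 0.073 for PPP1R15A, -0.067 to 0.20 for DDIT3 and -0.13 to 0.30 for CHAC1. PHF8 mRNA was lower in sgPHF8-3 by -0.48, and whether the amount of PHF8 lost has a part in these differences was not tested. With DESeq2, or when sgPHF8-1 A or sgPHF8-3 A was left out, 2 of the 10 passed in place of 4. Over all genes, the calls between the guides then numbered 889, 1066 and 1457, in that order, in place of 1544.

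**Figure D3:**
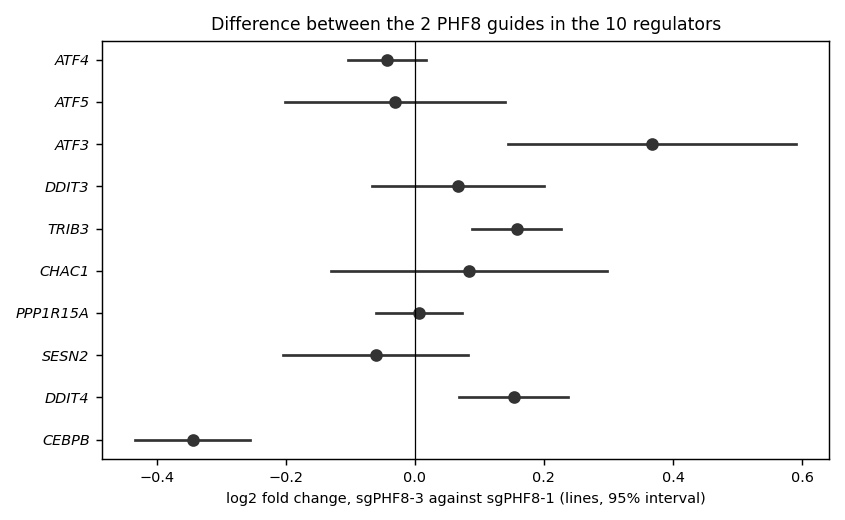
Log2 fold change of sgPHF8-3 against sgPHF8-1 (x axis) for the 10 genes, with 95% intervals as lines. The intervals of ATF3 (0.37), TRIB3 (0.16) and DDIT4 (0.15) lie right of 0 and that of CEBPB (-0.34) left of it.

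Levels can be compared between genes only per length of exon. ATF4 led in sgScr with 2881 ± 32.5 normalized counts per kilobase (SD, n = 3), followed by DDIT4 at 909 ± 9.94 and PPP1R15A at 875 ± 43.5, which overlapped. CEBPB (445 ± 15.3), TRIB3 (369 ± 5.45) and DDIT3 (187 ± 9.64) formed the middle. ATF5 at 87.7 ± 11 and SESN2 at 84.5 ± 5.48 did not differ beyond their spread, and CHAC1 (31.9 ± 2.23) and ATF3 (22.6 ± 3.02) were lowest. With sgPHF8-1, PPP1R15A stood at 1254 ± 22.0 and DDIT4 at 572 ± 29.5 per kilobase. With sgPHF8-3 the levels were 1259 ± 22.4 and 636 ± 34.9. CEBPB, at 627 ± 15.1 per kilobase, lay above DDIT4 in sgPHF8-1 and below it in sgPHF8-3, at 494 ± 29.8. Exon lengths are from GENCODE 44 lifted to GRCh37 and cover every annotated exon.

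Across the 9 libraries, PPP1R15A had the highest Pearson correlation with ATF4 among the other members (r = 0.958), followed by CHAC1 (0.935) and DDIT3 (0.902), and DDIT4 ran opposite (-0.941). ATF5 had the r nearest to 0 (0.445). Among 9385 further genes of at least 10 CPM (counts scaled to the library total), the 5 most like ATF4 were LSG1 (0.996), a GTPase of ribosome maturation, ODC1 (0.99), the first enzyme of polyamine synthesis, FRMD6 (0.989), GARS (0.989), the glycyl-tRNA synthetase, and RIOK3 (0.988). The libraries fall into 3 groups and share their normalization, so these r values describe mostly the difference between groups and carry no p.

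The eIF2 machinery upstream of ATF4 showed small changes in both directions. Of 18 genes tested, 5 were higher and 5 lower with sgPHF8-1 and 3 and 3 with sgPHF8-3, beside 15.2% higher and 15.7% lower over all genes with sgPHF8-1 and 9.48% and 9.78% with sgPHF8-3. The medians were 0.002 and -0.032 on the log2 scale. Without sgPHF8-1 B the counts with sgPHF8-1 were again 5 and 5. The kinase genes EIF2AK3 (PERK) and EIF2AK4 (GCN2) had log2 fold changes of -0.15 and -0.083 with sgPHF8-1, with edgeR adjusted p of 0.0694 and 0.0422. With sgPHF8-3 they were at -0.15 and -0.062, with edgeR adjusted p of 0.0799 and 0.172. Without sgPHF8-1 B, EIF2AK3 passed, at -0.20 (edgeR adjusted p = 0.0134) with sgPHF8-1 and -0.15 (edgeR adjusted p = 0.0454) with sgPHF8-3. EIF2AK1 (HRI), the heme-sensing kinase, fell slightly with both guides, to -0.11 and -0.14. EIF2S2, the beta subunit of eIF2, rose by 0.18 and 0.14, and PPP1R15B, the constitutive partner of the eIF2 phosphatase, by 0.094 and 0.14. DNAJC3, a co-chaperone that inhibits these kinases, stood at -0.11 and -0.16. All 8 of these values passed an edgeR adjusted p of 0.05. Phosphorylation of eIF2 was not measured.

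The listed targets of ATF4 outside the 10 were mostly higher. Their lists, like the other gene lists, were chosen with earlier results of these data known, so the counts are a description. Of 49 listed genes, 45 were tested, and 35 were higher and 3 lower with sgPHF8-1 and 31 higher and 3 lower with sgPHF8-3, beside 15.2% of all genes higher and 15.7% lower with sgPHF8-1 and 9.48% and 9.78% with sgPHF8-3. Asking also for an absolute log2 fold change above 0.25 left 20 of the 38 that passed with sgPHF8-1 and 14 of the 34 with sgPHF8-3. Over all 14614 genes it left 1818 of 4513 and 943 of 2814. The median log2 fold change was 0.22 and 0.20. Without sgPHF8-1 B, 33 were higher and 2 lower with sgPHF8-1, beside 13.4% and 14% of all genes. Between the guides, 1 was higher and 7 lower in sgPHF8-3, beside 5.83% and 4.74% of all genes. Both comparisons use the same 3 control libraries, so they are not independent.

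Genes of amino acid synthesis were higher in 10 of 12 with each guide, and 0 were lower, beside 15.2% of all genes higher and 15.7% lower with sgPHF8-1 and 9.48% and 9.78% with sgPHF8-3. Without sgPHF8-1 B, 8 were higher with sgPHF8-1. ASNS, asparagine synthetase, whose CARE is printed above, had log2 fold changes of 0.71 ± 0.068 (edgeR adjusted p = 6.93e-09) with sgPHF8-1 and 0.65 ± 0.068 (edgeR adjusted p = 9.54e-08) with sgPHF8-3. ALDH1L2 and MTHFD2, mitochondrial enzymes of folate metabolism, rose by 0.63 ± 0.127 and 0.45 ± 0.034 with sgPHF8-1, and by 0.71 ± 0.125 and 0.35 ± 0.034 with sgPHF8-3. CBS, which makes cystathionine, rose by 0.58 ± 0.077 and 0.37 ± 0.079. PSAT1 of the serine pathway rose by 0.25 ± 0.036 and 0.27 ± 0.036.

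All 12 genes of the tRNA charging list, which includes the tRNA exporter gene XPOT, were higher with each guide, beside 15.2% of all genes with sgPHF8-1 and 9.48% with sgPHF8-3. All 12 were also higher with sgPHF8-1 without sgPHF8-1 B, beside 13.4% of all genes. Their median log2 fold changes were 0.22 and 0.20. SARS, the seryl-tRNA synthetase, rose by 0.43 ± 0.036 (edgeR adjusted p = 5.9e-10) and 0.29 ± 0.036 (edgeR adjusted p = 1.57e-06). AARS and NARS, the AARS1 and NARS1 of the sequences above, rose by 0.22 ± 0.034 and 0.26 ± 0.03 with sgPHF8-1, and by 0.17 ± 0.034 and 0.17 ± 0.03 with sgPHF8-3. GARS rose by 0.34 ± 0.032 and 0.29 ± 0.032, YARS by 0.24 ± 0.031 and 0.25 ± 0.031, and WARS by 0.16 ± 0.035 and 0.18 ± 0.035.

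Of 8 amino acid transporters tested, 4 were higher and 2 lower with sgPHF8-1, and 3 and 1 with sgPHF8-3, beside 15.2% of all genes higher and 15.7% lower with sgPHF8-1 and 9.48% and 9.78% with sgPHF8-3. Without sgPHF8-1 B, 4 were higher and 1 lower with sgPHF8-1. SLC7A11, the cystine importer that feeds glutathione synthesis, rose by 0.56 ± 0.06 (edgeR adjusted p = 5.47e-08) and 0.67 ± 0.059 (edgeR adjusted p = 5.55e-09). SLC3A2, the heavy chain that carries SLC7A11 and SLC7A5 to the membrane, rose by 0.42 ± 0.034 and 0.44 ± 0.034, and SLC1A5, a glutamine carrier, by 0.43 ± 0.033 and 0.25 ± 0.033. SLC7A5, the leucine importer that shares this heavy chain, fell instead, to -0.48 ± 0.035 (edgeR adjusted p = 4.54e-11) and -0.37 ± 0.034 (edgeR adjusted p = 1.18e-08). It thus went with DDIT4 and against most of the targets.

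**Figure D4:**
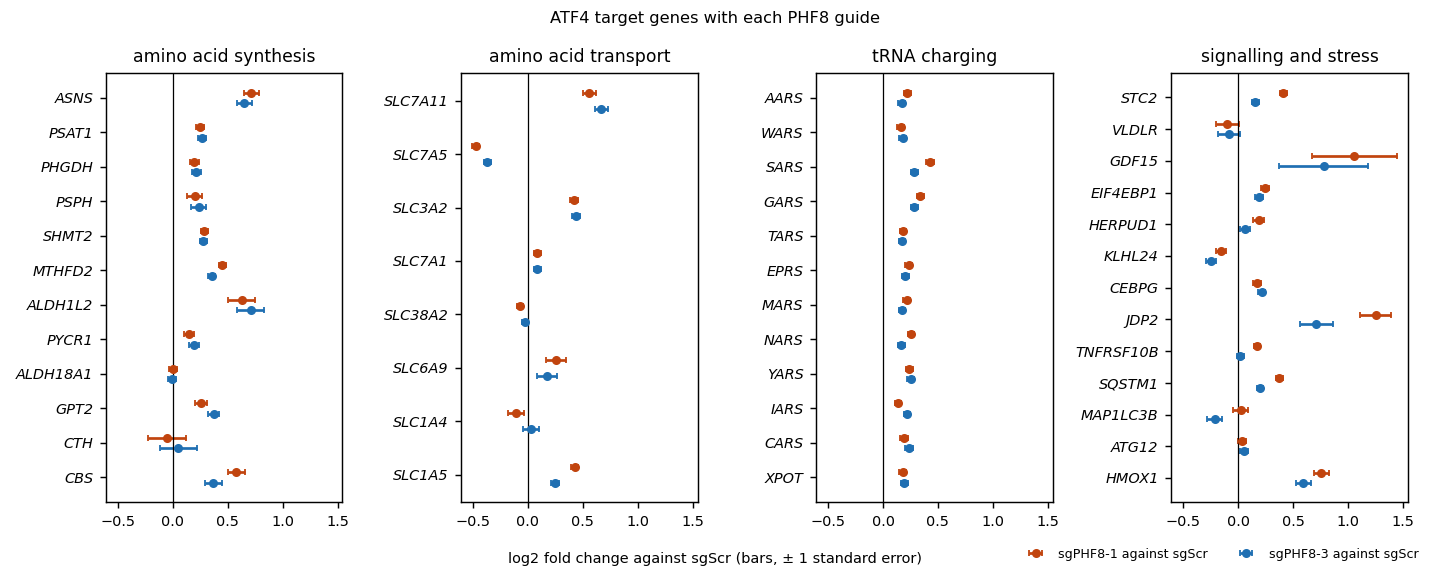
Log2 fold change against sgScr (x axis, with bars of 1 standard error on each side) of the 45 tested ATF4 targets with sgPHF8-1 and sgPHF8-3, in 4 panels by function. Every tRNA charging gene lies right of 0, and SLC7A5, at -0.48 and -0.37, lies farthest left.

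Of 13 signalling and stress targets tested, 9 were higher and 1 lower with sgPHF8-1 and 6 higher and 2 lower with sgPHF8-3, beside 15.2% of all genes higher and 15.7% lower with sgPHF8-1 and 9.48% and 9.78% with sgPHF8-3. The sgPHF8-1 counts were again 9 and 1 without sgPHF8-1 B. JDP2, a bZIP repressor, had the largest rise among those named here, 1.25 ± 0.139 (edgeR adjusted p = 1e-07) with sgPHF8-1 and 0.71 ± 0.151 (edgeR adjusted p = 0.00133) with sgPHF8-3. HMOX1, heme oxygenase, which NRF2 also induces, rose by 0.76 ± 0.067 and 0.59 ± 0.068. SQSTM1, an autophagy receptor, rose by 0.37 ± 0.031 and 0.20 ± 0.031, and STC2, a secreted glycoprotein, by 0.41 ± 0.033 and 0.15 ± 0.033. VLDLR, a lipoprotein receptor, stood at -0.099 and -0.083, with edgeR adjusted p of 0.511 and 0.624.

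Genes listed as paralogs of the members did not move as a block. CEBPZ, listed for its C/EBP name, rose by 0.16 and 0.15 and is among those counted higher. Several of the genes, JDP2, CEBPG and PPP1R15B among them, are counted in other lists too. Of 10 tested, 6 were higher and 2 lower with sgPHF8-1, and 4 and 3 with sgPHF8-3, beside 15.2% and 15.7% of all genes with sgPHF8-1 and 9.48% and 9.78% with sgPHF8-3. Without sgPHF8-1 B the sgPHF8-1 counts were again 6 and 2. SESN3, a relative of SESN2, fell to -0.49 ± 0.102 and -0.60 ± 0.103, and CEBPD, a relative of CEBPB, to -0.47 ± 0.088 and -0.55 ± 0.089. TRIB1, a relative of TRIB3, rose by 0.25 ± 0.053 with sgPHF8-1 (edgeR adjusted p = 0.000661) and stood at 0.088 with sgPHF8-3 (edgeR adjusted p = 0.28). JDP2, closest to ATF3 in its family, is given above.

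Of 18 possible bZIP dimer partners tested, 6 were higher and 7 lower with sgPHF8-1 (15.2% and 15.7% of all genes), and 4 and 5 with sgPHF8-3 (9.48% and 9.78% of all genes). Without sgPHF8-1 B, 5 were higher and 6 lower with sgPHF8-1. CEBPG, a known partner of ATF4 at CAREs, rose by 0.17 ± 0.034 and 0.21 ± 0.034. FOS, an AP-1 subunit, fell to -0.84 ± 0.186 (edgeR adjusted p = 0.00105) and -2.04 ± 0.224 (edgeR adjusted p = 1.91e-07). Its sgPHF8-1 and sgScr libraries overlapped, and the value with sgPHF8-1 was -0.61 without sgPHF8-1 B (edgeR adjusted p = 0.00469). ATF7 fell to -0.59 ± 0.143 and -0.42 ± 0.139, and its sgPHF8-3 and sgScr libraries overlapped.

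Targets of the ATF6 and IRE1 arms of the unfolded protein response, which run beside the kinase PERK that leads to ATF4, were followed as well. Of 17 tested, 2 were higher and 5 lower with sgPHF8-1 and 1 higher and 7 lower with sgPHF8-3, with median log2 fold changes of -0.047 and -0.082. Over all genes, 15.2% were higher and 15.7% lower with sgPHF8-1 and 9.48% and 9.78% with sgPHF8-3, so the higher counts were near the shares of all genes. Without sgPHF8-1 B, 2 were higher and 6 lower with sgPHF8-1. HSPA5, the chaperone BiP, fell to -0.22 ± 0.031 (edgeR adjusted p = 5.71e-06) and -0.18 ± 0.031 (edgeR adjusted p = 0.000191). HYOU1 and PDIA4, further chaperones of the endoplasmic reticulum, fell to -0.19 and -0.10 with sgPHF8-1 and to -0.19 and -0.19 with sgPHF8-3. XBP1, the factor that IRE1 splices, rose by 0.29 ± 0.044 and 0.38 ± 0.043. DNAJB9, a target of spliced XBP1, stood at 0.12 and 0.10, with edgeR adjusted p of 0.36 and 0.503, and at 0.058 with sgPHF8-1 when sgPHF8-1 B was left out.

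**Figure D5:**
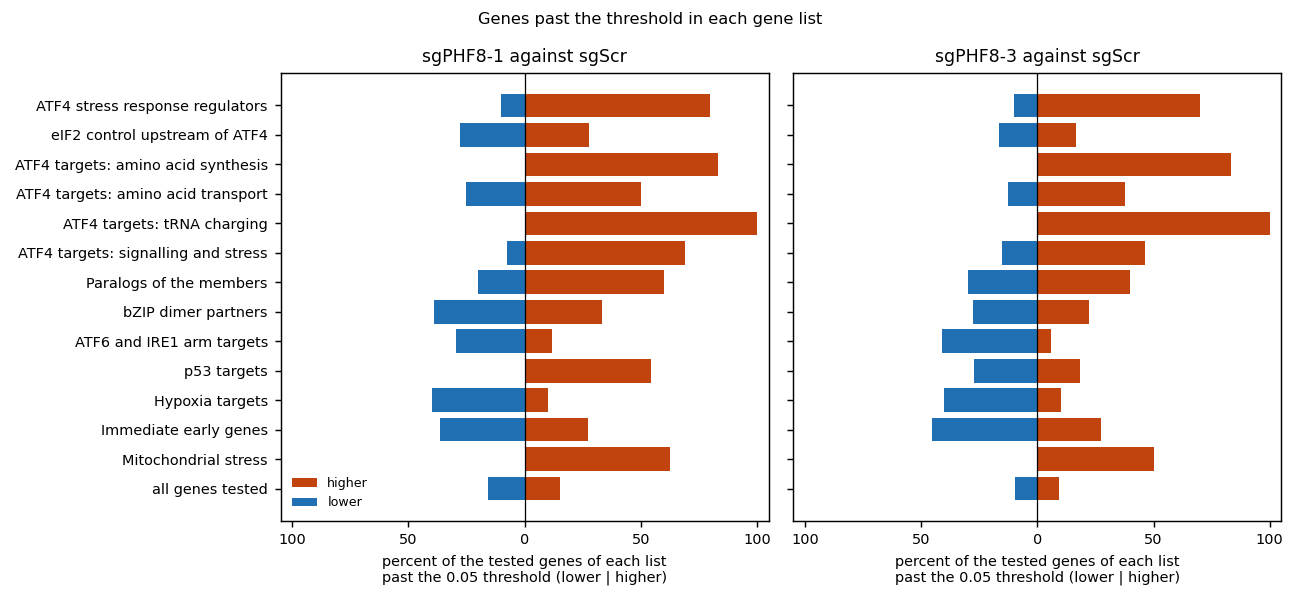
Percent of the tested genes of each list that passed an adjusted p of 0.05, higher to the right and lower to the left (x axis), for each guide against sgScr. The bottom bar gives all 14614 genes (15.2% higher and 15.7% lower with sgPHF8-1, 9.48% and 9.78% with sgPHF8-3). The tRNA charging list reaches the right edge, with 12 of 12 higher.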

How the data were processed

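RNA was measured by sequencing in 9 SKMEL-147 libraries, 3 for each of sgScr, sgPHF8-1 and sgPHF8-3. The authors aligned paired reads to hg19 with STAR and deposited raw read counts per gene, and the submitters' processing notes also name bcl2fastq, Picard, HTSeq and DESeq2. They also deposited normalized counts, a signal equal to the raw count divided by a size factor per library: 100.0% of its values came out as whole reads within 0.01. The annotation version and strand setting of the counting are not given in the sources used here.

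Normalized counts are printed per library. Fold changes come from the raw counts of all 9 libraries, with edgeR's quasi-likelihood test (edgeR 4.0.16, R 4.3.3, TMM scaling, filterByExpr), Benjamini-Hochberg adjusted over 14614 genes at 0.05. The SE is the log2 fold change divided by the root of its F value. 95% intervals are normal intervals of the SE and concern these replicates only. The procedure was tested on data simulated with known changes, which checks the code and not the results above. Libraries were read at 17366120 to 19838142 counts.

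The members and lists were chosen with earlier results of these data known. Named genes were PHF8, the 10 members, the first 2 measured genes of each list and up to 4 with the largest change past the threshold in the same direction with both guides (otherwise with 1), and the 5 genes most like ATF4. Alternatives were DESeq2 1.42.0, other scalings, no filter, each pair of groups alone, a replicate block, a log2 minimum of 0.25, leaving out each library, and, chosen after seeing the data, the reads recovered from the normalized table and each list without sgPHF8-1 B. No batch is given in the labels.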

Additional observations from a re-analysis of the deposited data

Results flagged for a closer look

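Of the genes named by the stated rule, these differed between the 2 guides by the test of the difference itself, sgPHF8-3 against sgPHF8-1 in edgeR, as log2 fold changes. Among the 10 regulators they were ATF3 (0.37), TRIB3 (0.16), DDIT4 (0.15) and CEBPB (-0.34). Among ATF4 targets and paralogs, JDP2 (-0.54), STC2 (-0.26), SLC1A5 (-0.18), SQSTM1 (-0.18), TRIB1 (-0.16) and SARS (-0.14) were lower with sgPHF8-3. The named p53 targets CDKN1A (-0.53), MDM2 (-0.22) and AEN (-0.13) were lower too. Of the immediate early genes named, FOS (-1.21) and FOSB (-1.73) were lower with sgPHF8-3 and EGR1 (0.80) was higher. For the 10 regulators these are the values that also chose them, and they are a description. Without the sgPHF8-1 B library, EGR1 (0.53, edgeR adjusted p = 0.0819) and TRIB1 (-0.17, edgeR adjusted p = 0.0559) did not pass, while CBS (-0.25, edgeR adjusted p = 0.0335) and XBP1 (0.14, edgeR adjusted p = 0.0296) did. Further genes of these lists outside the rule also passed, BTG2 at -0.62 and DUSP1 at -0.49 among them, chosen here after their values were seen. What lies behind the differences was not tested.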

How the results depend on the processing

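Alternatives were run on the counts of genes, members and ATF4 targets and on the 10 members' fold changes. Among the members, 2 values near 0 changed sign, both between the guides and never past the threshold: ATF5 (-0.031) became 0.037 without sgPHF8-1 C and 0.0094 without sgPHF8-3 A, and PPP1R15A (0.006) became -0.011 without sgPHF8-1 B and -0.0085 without sgPHF8-3 B, within leave-one-out ranges of -0.072 to 0.037 and -0.011 to 0.019. With DESeq2, 1686 genes passed with sgPHF8-3 and 889 between the guides, where edgeR gave 2814 and 1544, and 2 members in place of 4 passed between the guides. Asking also for an absolute log2 fold change above 0.25 left 1818, 943 and 440 genes, 20, 14 and 2 ATF4 targets (sgPHF8-1, sgPHF8-3, between the guides) and 2 members between the guides; the minimum itself removes small changes. Leaving out 1 library at a time gave 3544 to 4642, 1877 to 3430 and 923 to 1467 genes, 7 to 9, 7 to 8 and 2 to 4 members, and 34 to 38, 32 to 35 and 6 to 11 targets in the same order. Between the guides, 923 genes passed without sgPHF8-3 B and 983 without sgPHF8-3 C, and 2 members without sgPHF8-1 A or without sgPHF8-3 A. The cause of these shifts was not tested.

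The members' own values chose them, so what follows is a description of the fit and no verdict on a member. ATF3 with sgPHF8-1 fell short with DESeq2 and without sgScr B, sgScr C, sgPHF8-1 A or sgPHF8-1 B. SESN2 with sgPHF8-1 fell short with DESeq2, with library totals, with no filter, and without sgScr B, sgPHF8-1 A or sgPHF8-1 B. CEBPB with sgPHF8-3 fell short with DESeq2 and without sgScr A, sgScr B, sgPHF8-3 A or sgPHF8-3 B. The reads recovered from the normalized table gave 4513, 2814 and 1544 genes, as the raw counts did.

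No pairing by replicate letter was seen. Deviations of same-letter libraries correlated at -0.0829 to 0.0527, and those of different-letter libraries at -0.0836 to 0.143. A weak pairing could be hidden by counting noise. With the letter as a replicate block, 4395, 2698 and 1481 genes, 9, 8 and 4 members and 37, 34 and 7 targets passed. At these depths ATF3 and CHAC1, near 100 counts, are the least precise members.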

Other observations

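Further gene lists touch members that other pathways also induce, namely SESN2 (p53) and DDIT4 (hypoxia, p53). Of 11 p53 targets tested, 6 were higher and 0 lower with sgPHF8-1, and 2 higher and 3 lower with sgPHF8-3, beside 15.2% and 15.7% of all genes with sgPHF8-1 and 9.48% and 9.78% with sgPHF8-3. In sgPHF8-3 against sgPHF8-1, 0 were higher and 8 lower, beside 5.83% and 4.74% of all genes. Without the sgPHF8-1 B library, 6 were higher and 0 lower with sgPHF8-1, and 7 were lower between the guides. CDKN1A, which encodes the cell cycle inhibitor p21, rose by 0.33 ± 0.033 (edgeR adjusted p = 1.7e-08) with sgPHF8-1 and fell to -0.20 ± 0.033 (edgeR adjusted p = 8.32e-05) with sgPHF8-3. MDM2, the ligase that degrades p53, rose by 0.30 ± 0.029 with sgPHF8-1 and stood at 0.077 ± 0.029 with sgPHF8-3 (edgeR adjusted p = 0.0651; 0.0348 without sgPHF8-1 B). FAS, a death receptor, rose by 0.47 ± 0.1 and 0.31 ± 0.103, and AEN, a nuclease, by 0.30 ± 0.032 and 0.17 ± 0.032. Of 10 hypoxia targets tested, 1 was higher and 4 lower with each guide, beside the same shares of all genes, and with sgPHF8-1 again without sgPHF8-1 B. VEGFA, the angiogenic growth factor, fell to -0.50 ± 0.044 and -0.39 ± 0.044, and NDRG1 to -0.30 ± 0.063 and -0.27 ± 0.063, while ADM rose by 0.10 ± 0.037 and 0.17 ± 0.037.

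Of 11 immediate early genes tested, 3 were higher and 4 lower with sgPHF8-1, and 3 and 5 with sgPHF8-3, beside 15.2% and 15.7% of all genes with sgPHF8-1 and 9.48% and 9.78% with sgPHF8-3. Without sgPHF8-1 B, 4 were higher and 2 lower with sgPHF8-1. FOSB, an AP-1 subunit, fell to -0.42 ± 0.159 and -2.15 ± 0.206, though the value with sgPHF8-1 did not pass without sgPHF8-1 B (-0.29, edgeR adjusted p = 0.17). EGR1 stood at -0.15 ± 0.231 with sgPHF8-1 (edgeR adjusted p = 0.68) and at 0.12 without sgPHF8-1 B, and rose by 0.65 ± 0.205 with sgPHF8-3. MYC rose by 0.21 ± 0.048 and 0.27 ± 0.047, and IER3 fell to -0.20 ± 0.035 and -0.15 ± 0.035. Of 8 genes of mitochondrial stress, 5 were higher with sgPHF8-1 (4 without sgPHF8-1 B) and 4 with sgPHF8-3, and 0 were lower, beside those same shares. HSPA9, a mitochondrial chaperone, rose by 0.25 ± 0.028 and 0.19 ± 0.028, HSPD1 by 0.13 ± 0.028 and 0.10 ± 0.028, LONP1, a protease, by 0.18 ± 0.031 and 0.14 ± 0.031, and TRAP1 by 0.15 ± 0.033 and 0.11 ± 0.033. HSPE1 stood at 0.051 and 0.038, with edgeR adjusted p of 0.407 and 0.587. The summed level of 8 listed melanocyte genes was 2965 to 3104 normalized counts in sgScr, 2611 to 2765 in sgPHF8-1 and 2823 to 2886 in sgPHF8-3, and its part in any result was not tested.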
